A study of Mus musculus with 23 samples.

Results

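The genes Fam25c, Odf3b, Gypc, Pcolce2 and Atp6v0d2 were followed in mouse liver, where their response to an antibody against the glucagon receptor differed between 2 diets. They are 5 of the 24475 genes of an RPKM table (reads scaled by gene length and depth), and all 5 were among the 11939 genes that passed the filter on low values (5 or more libraries with 0.5 RPKM or above). The 5 were chosen by name because the antibody difference on one diet had differed from that on the other in these same libraries, so that contrast is given for them as a description and supports nothing. Liver RNA came from male C57BL/6J mice kept on regular chow or on a high-fat diet (HFD) over 4 months and dosed with antibody at 10 mg/kg over 3 weeks. REGN1193 blocks the glucagon receptor. The other antibody is labelled REGN496 and was taken to be the isotype control by elimination, since the design names a control without its code. There were 5 libraries of chow with REGN496 (numbered 1 to 5), 6 of chow with REGN1193 (6 to 11), 6 of HFD with REGN496 (12 to 17) and 6 of HFD with REGN1193 (18 to 23). Whether the libraries are from separate mice is not in the labels, so p-values reflect only the spread between these samples, which may be technical.

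Glucagon is released by the pancreas during fasting and acts on hepatocytes through its receptor, which raises cyclic AMP and thereby glucose output and the breakdown of amino acids. Blocking the receptor lowers blood glucose, and such antibodies have been studied in obese and diabetic animals. The 5 genes do not form a pathway. Atp6v0d2 encodes a d-type subunit of the membrane sector of the vacuolar proton pump, which acidifies lysosomes. Its product is best known from osteoclasts, macrophages and the kidney. Gypc encodes glycophorin C, a membrane protein that anchors the red cell skeleton through protein 4.1 and is also made outside the red cell lineage. Pcolce2 encodes a secreted enhancer of the proteinases that trim procollagen, and it has also been tied to the handling of HDL particles. Odf3b is named after the outer dense fibres of the sperm tail, and Fam25c is named only after a family of similar sequences.

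Library depth was even. Summed RPKM per library lay between 594026 and 692295, 15365 to 16032 genes lay above 0, and the steps between low values gave relative depths of 0.865 to 1.15. Libraries 19 and 20, both HFD with REGN1193, correlated least with the rest of their group (means of 0.98 and 0.979). Among the results also given without both are the averaged diet effects of Gypc and Pcolce2 and the HFD antibody difference of Gypc. The 7 hepatocyte markers were all present and summed to 52600 to 71100 RPKM per library. The RNA is bulk RNA, in which fewer cells of a type and less RNA per cell cannot be told apart.

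The sequence just upstream of the start is shown for the 3 members whose promoter could be printed, because the members moved with the diet and antibody groups. Each is the 250 bases before the start used by the promoter table, 5′ to 3′ on the gene's own strand, from RefSeq's GRCm38.p6 table. Capitals mark a match to 1 of the motifs named in the next paragraph. Fam25c lies at chr14:34355394-34355643 on the minus strand, Odf3b at chr15:89379255-89379504 on the minus strand and Pcolce2 at chr9:95637378-95637627 on the plus strand. The start used for Fam25c, chr14:34355393, lies 2946 bases inside the gene span that RefSeq gives, while the other 2 starts lie at the edge of theirs. GENCODE M21 has the only Fam25c transcript start at chr14:34355433, 40 bases further upstream and within the printed window.
Fam25c: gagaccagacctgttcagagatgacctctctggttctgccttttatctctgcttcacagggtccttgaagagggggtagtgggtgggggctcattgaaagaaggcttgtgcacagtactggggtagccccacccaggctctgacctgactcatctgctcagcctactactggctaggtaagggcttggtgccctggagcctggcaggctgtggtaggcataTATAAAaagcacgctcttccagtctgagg
Odf3b: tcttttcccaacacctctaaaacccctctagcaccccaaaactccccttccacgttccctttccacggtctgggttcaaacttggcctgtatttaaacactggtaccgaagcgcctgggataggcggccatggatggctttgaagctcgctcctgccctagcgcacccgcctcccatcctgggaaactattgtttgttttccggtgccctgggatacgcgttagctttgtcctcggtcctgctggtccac
Pcolce2: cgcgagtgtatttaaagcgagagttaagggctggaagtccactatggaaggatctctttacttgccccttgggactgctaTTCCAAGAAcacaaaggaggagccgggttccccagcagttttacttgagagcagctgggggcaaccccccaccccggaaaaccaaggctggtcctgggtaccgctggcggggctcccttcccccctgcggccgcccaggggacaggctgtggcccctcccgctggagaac

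Both strands were searched for the TATA box (TATAAA), the CCAAT box (CCAAT), the cAMP response element (TGACGTCA) and its shorter core (TGACG, which the full element contains), a FOXO element (TGTTTAC) and a STAT element (TTCNNNGAA). The Fam25c promoter held TATAAA from 29 to 24 bases before the start of the promoter table, which is downstream of the GENCODE start, and 12.4% of 32851 promoters of the same length held that motif. The Pcolce2 promoter held 1 match to TTCNNNGAA, from 170 to 162 bases before the start, against 7.02% of all promoters. No motif of the 6 was found in the Odf3b window, which says only that these letters are not in it. The cAMP response element was in none of the 3 windows and in 1.55% of all promoters. GC content was 55.2% for Fam25c, 55.6% for Odf3b and 61.2% for Pcolce2, against a median of 52.4% over all promoters. Each match is a description of letters and not of a bound site.

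Fam25c (gene ID 69134, chr14:34351882-34358339, minus strand, GRCm38.p6) was the most abundant of the 5. Chow libraries with REGN496 held 46.1, 61.8, 44.6, 49.7 and 43.8 RPKM, and chow libraries with REGN1193 held 35.2 to 55.7 with a median of 48.9. HFD libraries with REGN496 held 54.9 to 114.6 with a median of 67.4, and HFD libraries with REGN1193 held 23.7 to 33.5 with a median of 29.5. The lowest group was thus HFD with REGN1193, which lay under every other library of the series, and the highest values lay in HFD with REGN496, where library 14 alone reached 114.6. The group means were 49.2 ± 7.38 (SD, n = 5), 48.4 ± 7.11 (n = 6), 75.0 ± 21.2 (n = 6) and 28.8 ± 3.28 RPKM (n = 6). On HFD the mean was 2.61-fold lower with REGN1193, while the chow means with the 2 antibodies differed by less than their SD. The reads behind these values numbered 145 to 747 per library.

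Odf3b (gene ID 70113, chr15:89377447-89379254, minus strand) had its low values in a single group. It stood at 5.51, 5.63, 5.37, 6.23 and 5.61 RPKM on chow with REGN496 and at 4.19 to 7.12 on chow with REGN1193, with a median of 5.37. On HFD with REGN496 it stood at 2.68 to 3.69 with a median of 2.91, and on HFD with REGN1193 at 5.02 to 7.59 with a median of 6.01. Every HFD library with REGN496 lay below every library of the other 3 groups, which overlapped one another. The means were 5.67 ± 0.333 (SD, n = 5), 5.49 ± 1.15 (n = 6), 3.00 ± 0.364 (n = 6) and 6.01 ± 0.926 RPKM (n = 6), a 2.01-fold higher mean with REGN1193 on HFD. Reads numbered 47 to 144 per library.

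Gypc (gene ID 71683, chr18:32528320-32560034, minus strand) had its high values in a single group. It stood at 2.43, 2.50, 3.38, 3.30 and 3.56 RPKM on chow with REGN496 and at 2.08 to 3.54 with a median of 2.96 on chow with REGN1193. HFD libraries with REGN496 held 1.68 to 3.54 with a median of 2.38, and those with REGN1193 held 4.13 to 6.23 with a median of 5.22. All 6 HFD libraries with REGN1193 lay above all 17 others, and those 17 overlapped between groups. The means were 3.03 ± 0.529 (SD, n = 5), 2.84 ± 0.551 (n = 6), 2.51 ± 0.687 (n = 6) and 5.30 ± 0.776 RPKM (n = 6), 2.11-fold higher with REGN1193 on HFD. Reads numbered 56 to 248 per library.

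Atp6v0d2 (gene ID 242341, chr4:19876838-19922566, minus strand) differed by diet as well as by antibody. On chow it stood at 0.836, 0.652, 1.42, 0.547 and 0.682 RPKM with REGN496 and at 0.230 to 0.671 with REGN1193, with a median of 0.409. On HFD it stood at 0.562 to 1.87 with REGN496, with a median of 1.33, and at 1.99 to 3.49 with REGN1193, with a median of 2.40. The 6 HFD libraries with REGN1193 lay above all others, chow libraries with REGN1193 held the 5 lowest values, and the groups between them overlapped. The means were 0.827 ± 0.346 (SD, n = 5), 0.407 ± 0.166 (n = 6), 1.29 ± 0.495 (n = 6) and 2.51 ± 0.573 RPKM (n = 6). With REGN1193 the mean was 2.03-fold lower on chow and 1.95-fold higher on HFD than with REGN496, so that the diets differed 6.18-fold under REGN1193. The values of this gene did not fall on read steps, and its read numbers are not given.

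Pcolce2 (gene ID 76477, chr9:95637628-95695551, plus strand) was faint, as Atp6v0d2 was. It stood at 0.724, 0.433, 0.920, 0.682 and 0.806 RPKM on chow with REGN496 and at 0.885 to 1.39 on chow with REGN1193, with a median of 1.17. On HFD it stood at 0.794 to 0.993 with REGN496, with a median of 0.869, and at 0.382 to 0.859 with REGN1193, with a median of 0.591. Neither antibody pair was free of overlap: library 3 lay above the lowest chow library with REGN1193, and library 18 lay inside the range of HFD with REGN496. The means were 0.713 ± 0.181 (SD, n = 5), 1.16 ± 0.178 (n = 6), 0.871 ± 0.0697 (n = 6) and 0.589 ± 0.170 RPKM (n = 6), which is 1.63-fold higher with REGN1193 on chow and 1.48-fold lower on HFD. These values rest on 12 to 42 reads per library. Counting alone gives a coefficient of variation of 19.3% for HFD with REGN496, where 8.01% was observed, so the observed spread of that group is below what counting alone gives. Of the members, Pcolce2 is also overlapped on the opposite strand by Gm16126, Gm16127 and Itpa-ps2. The library kit was strand-specific, but the strand setting of the counting is not given in the sources used here, so reads from either strand cannot be told apart.

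**Figure D1:**
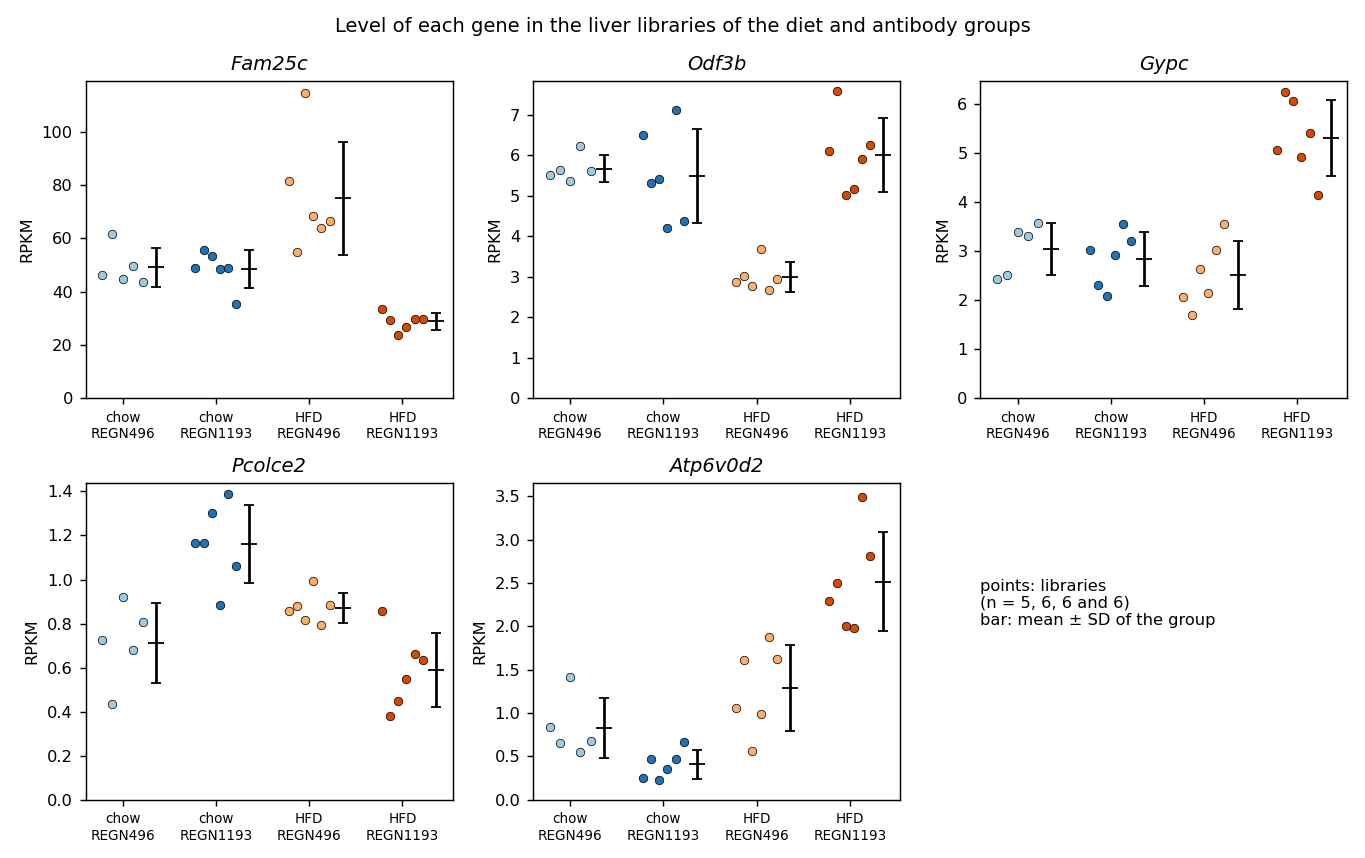
RPKM (y axis, from 0) of each of the 5 genes in the 4 diet and antibody groups (x axis), 1 point per library, with the mean ± SD of the group as a bar. For Fam25c, Gypc and Atp6v0d2 the HFD libraries with REGN1193 lie apart from all others, for Odf3b those of HFD with REGN496 do, and for Pcolce2 neighbouring groups overlap.

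The order of the group levels differed from gene to gene. From low to high, Fam25c ran from HFD with REGN1193 through chow with REGN1193 and chow with REGN496 to HFD with REGN496. The chow groups did not differ beyond their spread. Odf3b ran from HFD with REGN496 to the other 3 groups, which did not differ beyond their spread. Gypc ran from HFD with REGN496, chow with REGN1193 and chow with REGN496, none of which differed from its neighbour beyond the spread, to HFD with REGN1193. Pcolce2 ran from HFD with REGN1193 through chow with REGN496 and HFD with REGN496, to chow with REGN1193, and each neighbouring pair overlapped. Atp6v0d2 ran from chow with REGN1193 through chow with REGN496 and HFD with REGN496 to HFD with REGN1193, and of the neighbours in this order the last pair did not overlap.

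The antibody difference on each diet was computed as log2(RPKM + 1) with REGN1193 minus that with REGN496, a scale that understates the change of faint genes. Fam25c differed by -0.02 ± 0.14 (SE) on chow and by -1.32 ± 0.14 on HFD. Odf3b differed by -0.06 ± 0.10 and 0.81 ± 0.10, and Gypc by -0.07 ± 0.13 and 0.86 ± 0.12. In these 3 genes the chow difference was smaller than its SE and the HFD difference carried the contrast. Atp6v0d2 differed by -0.37 ± 0.14 on chow and 0.63 ± 0.14 on HFD, and Pcolce2 by 0.34 ± 0.08 and -0.24 ± 0.08, so their estimates had opposite signs on the diets. The chow difference of Atp6v0d2 (adjusted p = 0.348) and the HFD difference of Pcolce2 (adjusted p = 0.0519) did not pass. The former passed in 0 and the latter in 9 of 32 alternative settings. Libraries 19 and 20 held the lowest Pcolce2 values of HFD with REGN1193, 0.382 and 0.450 RPKM. Over the 32 settings, which include leaving out both, the HFD difference of Pcolce2 ran from -0.53 to -0.16. As parts of the contrast that chose the genes, the members' differences on each diet are descriptions, and a pass there supports nothing. The contrast that chose the genes, HFD difference minus chow difference, was -1.29 ± 0.20 for Fam25c, 1.0 ± 0.20 for Atp6v0d2, 0.93 ± 0.18 for Gypc, 0.86 ± 0.14 for Odf3b and -0.58 ± 0.11 for Pcolce2. All 5 passed a threshold of 0.05 on limma's adjusted p in this contrast because they were picked for it, and 24 genes or 0.201% of those tested did. At the edge of that threshold stood Lin7a with 0.50 just inside and Bet1 with -0.65 just outside. Outside the 5, the smallest adjusted p belonged to Cyp3a11 (1.73), a drug-metabolising cytochrome P450, and Cyp17a1 (-2.35), a steroid hydroxylase.

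**Figure D2:**
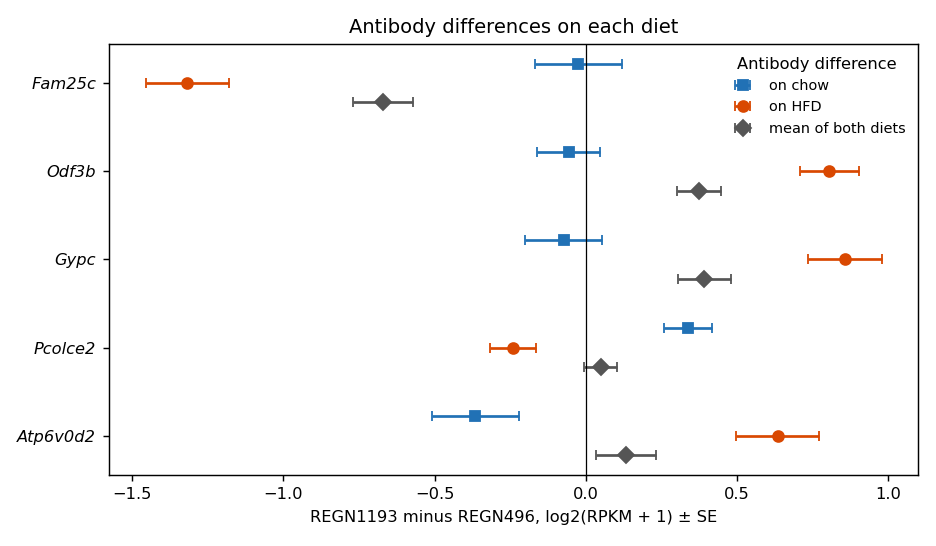
REGN1193 minus REGN496 in log2(RPKM + 1) (x axis) for each of the 5 genes (y axis) on chow, on HFD and as the mean of both diets, with the SE as bars. The chow values of Fam25c, Odf3b and Gypc lie at 0 within their SE, and those of Pcolce2 and Atp6v0d2 lie on the other side of 0 from their HFD values.

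The antibody effect averaged over the diets was not used to choose the genes. Its estimate is nearly uncorrelated with that of the choosing contrast, so it was tested. Both share each gene's estimate of spread, so the choice of genes may have made these adjusted p too small. Fam25c fell by 0.67 ± 0.10 on the log2 scale (limma, adjusted p = 1.29e-04). Odf3b rose by 0.37 ± 0.07 (adjusted p = 0.00193) and Gypc by 0.39 ± 0.09 (adjusted p = 0.00755). Atp6v0d2 differed by 0.13 ± 0.10 (adjusted p = 0.428) and Pcolce2 by 0.05 ± 0.05 (adjusted p = 0.623), where estimates of opposite sign on the diets were averaged. Of the 5 members 3 passed, against 7.71% of all genes tested. The median over all tested genes was 0.04. For Fam25c, Odf3b and Gypc the averaged effect is the mean of a chow difference near 0 and a larger one on HFD, and it describes neither diet alone.

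The diet effect averaged over the antibodies, HFD minus chow, was tested for the same reason and with the same limit from the shared spread. Atp6v0d2 rose by 0.81 ± 0.10 on the log2 scale (limma, adjusted p = 1.24e-06). Gypc rose by 0.25 ± 0.09 (adjusted p = 0.0225), Odf3b fell by 0.31 ± 0.07 (adjusted p = 0.00123) and Pcolce2 fell by 0.16 ± 0.05 (adjusted p = 0.0218). Fam25c differed by -0.08 ± 0.10 (adjusted p = 0.543). For Fam25c, Odf3b, Gypc and Pcolce2 estimates of opposite sign under the antibodies were averaged, so the mean describes neither antibody alone. That 4 of the 5 passed stands beside 47.7% of all tested genes, so a call in this comparison was common. Without libraries 19 and 20 the Gypc effect was 0.20 (adjusted p = 0.0738) and that of Pcolce2 -0.12 (adjusted p = 0.0779), both past the threshold no longer. Gypc also lost its call when every library was rescaled to the same sum (0.23, adjusted p = 0.0694).

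Under each antibody alone the diet difference took a different size, and its estimates had opposite signs under the antibodies in all members but Atp6v0d2. Fam25c stood 0.57 ± 0.14 higher on HFD under REGN496 and differed by -0.72 ± 0.14 under REGN1193. Odf3b differed by -0.74 ± 0.10 and 0.12 ± 0.10, and Gypc by -0.21 ± 0.13 and 0.72 ± 0.12. Atp6v0d2 differed by 0.31 ± 0.14 and 1.31 ± 0.14, and Pcolce2 by 0.13 ± 0.08 and -0.45 ± 0.08. These pairs share the libraries of the antibody differences and contain the choosing contrast, so they are descriptions. The libraries of the diets did not overlap for 4 members under REGN1193 (all but Odf3b) and for 1 under REGN496 (Odf3b). Over all tested genes the libraries did not overlap for 10.3% and 15.9%. Between the antibodies on HFD they did not overlap for 4 members (all but Pcolce2), beside 2.85% of all tested genes, and on chow for 0 members, beside 2.50%.

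The members did not track one another closely from library to library. Over 23 libraries the correlation of log2(RPKM + 1) ran from -0.774 between Fam25c and Gypc to 0.635 between Gypc and Atp6v0d2. Once the group means were taken out, it ran from -0.547 between Fam25c and Atp6v0d2 to 0.304 between Odf3b and Pcolce2. The libraries share diet and antibody, so the former values largely restate the group means, and they are given as descriptions.

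For each member the tested genes most like it over the 23 libraries were found by Pearson correlation, with the correlation within groups beside it. Fam25c was most like Pnpla7, a lysophospholipase (r = 0.829, within groups 0.364), and Rnr1, the ribosomal RNA of the small mitochondrial subunit (0.823 and 0.368). Odf3b was most like Rsl1d1, a nucleolar protein (0.824 and 0.221), and Ifi47, an interferon-inducible GTPase (0.819 and 0.268). Within groups these 4 partners followed their member only weakly. Gypc was most like Cd82, a tetraspanin (0.870 and 0.594), and Tapbp, tapasin of the peptide-loading complex (0.849 and 0.642). Pcolce2 was most like Clec4f, a lectin of Kupffer cells (0.782 and 0.673), and Fcna, a ficolin of macrophages (0.778 and 0.681). Atp6v0d2 was most like Dsg1c, a desmosomal cadherin (0.936 and 0.814), and Kng2, a kininogen (0.894 and 0.567). Dsg1c held 1.45 ± 0.419, 1.41 ± 0.426, 2.46 ± 1.08 and 5.58 ± 0.714 RPKM (SD, n = 5, 6, 6 and 6) in the same group order, and it was the partner closest to its member both over all libraries and within groups.

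**Figure D3:**
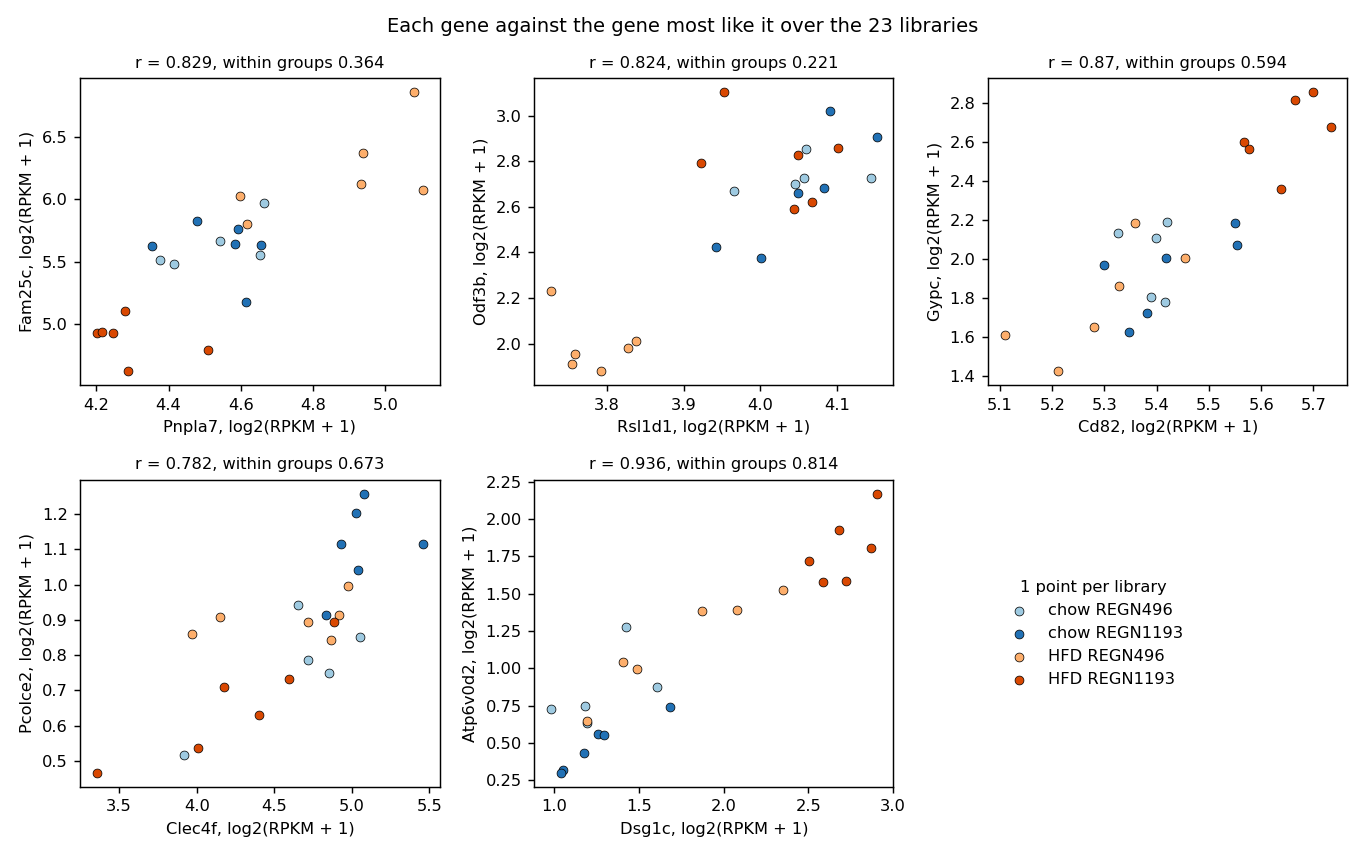
log2(RPKM + 1) of each of the 5 genes (y axis) against the gene most like it over the 23 libraries (x axis), 1 point per library coloured by group, with the correlation over all libraries and within groups above each panel. Atp6v0d2 and Dsg1c follow each other within groups (0.814), while Odf3b and Rsl1d1 do so mainly through the group of HFD with REGN496 (0.221 within groups).

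The subunits of the vacuolar proton pump, of which Atp6v0d2 is one, were taken as a list. The pump has a cytosolic V1 sector that splits ATP and a membrane V0 sector that passes protons. Of its other subunits 19 were tested. None of them was called for the diet dependence of the antibody effect, for which only 0.201% of all tested genes were called. They ranged there from -0.20 to 0.19. For diet, averaged over the antibodies, 10 of the 19 were higher and 1, Tcirg1, lower, beside 47.7% of all tested genes called in either direction. Their median was 0.14 and their range -0.26 to 0.26, all below the 0.81 of Atp6v0d2. Under REGN496 alone Atp6v0d2 differed by 0.31 between the diets, inside the range of -0.30 to 0.34 of the others. Under REGN1193 alone it differed by 1.31, beside -0.21 to 0.30. The distance from the other subunits thus came from REGN1193, whose libraries also enter the choosing contrast. The paralog Atp6v0d1, the d subunit of most tissues, stood at 37.2 ± 1.30, 36.3 ± 1.28, 41.3 ± 3.70 and 40.1 ± 2.72 RPKM (SD, n = 5, 6, 6 and 6), far above Atp6v0d2 per length. Its antibody effect differed between the diets by -0.01 ± 0.08 (adjusted p = 0.991), and its diet effect was 0.14 ± 0.04 (adjusted p = 0.00608). For the antibody averaged over the diets, Atp6v1d, Atp6v0a2 and Tcirg1 were higher and none was lower, beside 7.71% of all tested genes called. But under median-ratio scaling 1 of the 19 was higher. On HFD alone Atp6v1d and Tcirg1 were higher, 2 of 19 (1 under median-ratio scaling), beside 7.45% of all tested genes called in that comparison.

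**Figure D4:**
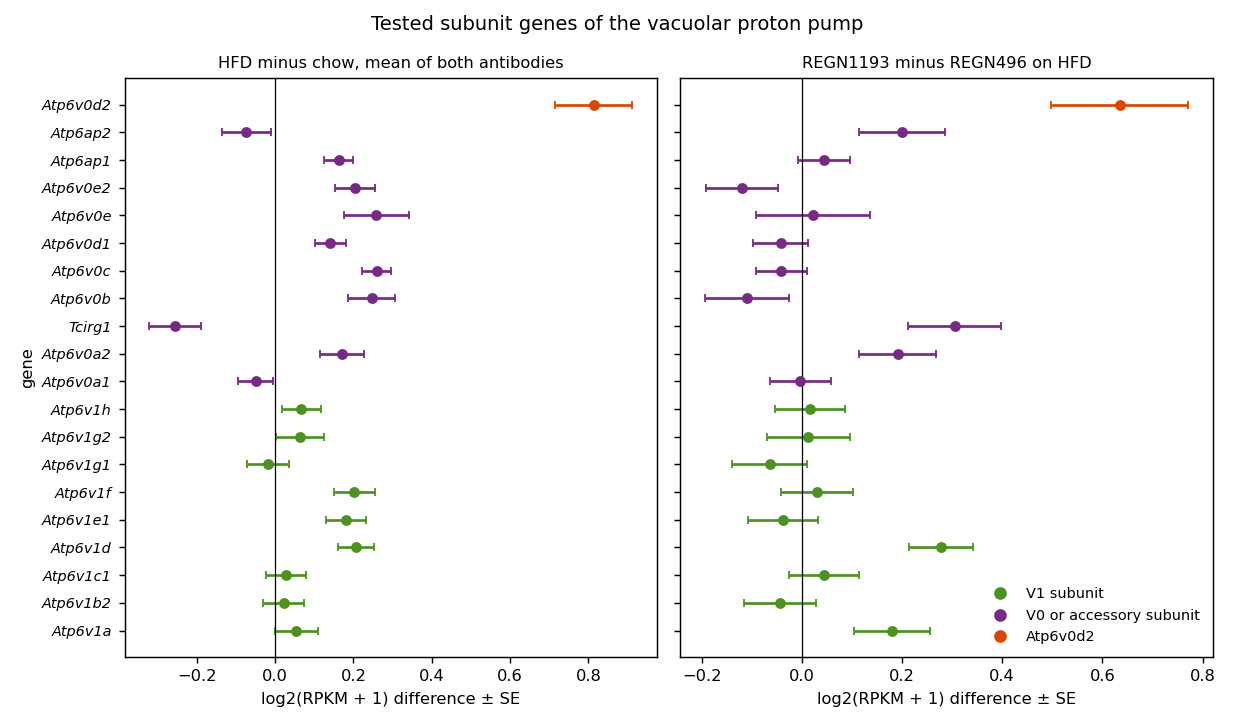
Difference in log2(RPKM + 1) ± SE (x axes) of Atp6v0d2 and the 19 other tested subunit genes of the vacuolar proton pump (y axis), HFD minus chow as the mean of both antibodies on the left and REGN1193 minus REGN496 on HFD on the right. Atp6v0d2 lies at 0.81 and 0.63, and the others lie between -0.26 and 0.26 on the left and between -0.12 and 0.31 on the right.

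Lysosomal enzymes and membrane proteins numbered 24 tested genes. In the diet effect, where 47.7% of all tested genes were called, 7 were higher and 1 lower. In the averaged antibody effect, where 7.71% were called, 2 were higher and 1 lower, a split that turned to 1 and 3 under median-ratio scaling. Not every gene of this list is reported here. Of those that are, Ctsl, cathepsin L, had a contrast between the diets of 0.37 ± 0.14 (adjusted p = 0.352). Of 13 tested genes of lipid-associated macrophages and osteoclasts, which also express Atp6v0d2, 6 were higher and 4 lower for diet. Fabp5, a fatty acid binder (-1.12 ± 0.46, adjusted p = 0.425), and Cd9, a tetraspanin (-0.54 ± 0.29, adjusted p = 0.551), had the smallest adjusted p of that list in the contrast between diets. The level of the marker list of lipid-associated macrophages (8 genes, none at 0 throughout) summed to 39.2 to 64.0, 53.8 to 126, 19.3 to 60.9 and 28.4 to 64.9 RPKM per group. Its part in the Atp6v0d2 result was not tested.

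Around Gypc, 6 of 20 genes of the red cell membrane and skeleton were tested. For diet 1 was higher and 1 lower, beside 47.7% of all tested genes called. For the antibody 0 were called in either direction, beside 7.71%. Slc4a1, the anion exchanger of the red cell, differed between diets in its antibody effect by -0.54 ± 0.17 (adjusted p = 0.245), and Add1, an adducin of the skeleton, by 0.16 ± 0.12 (adjusted p = 0.712). The red blood cell marker list summed to 516 to 1150 on chow with REGN496, 773 to 2160 on chow with REGN1193, 1290 to 2540 on HFD with REGN496 and 803 to 1830 on HFD with REGN1193. The part of red cells in the Gypc values was not tested. The T and NK cell markers (10 genes, 5 tested) summed to 3.75 to 4.70 on HFD with REGN496 and to 4.86 to 19.8 on HFD with REGN1193, with libraries 19 (19.8), 20 (13.4) and 21 (12.6) highest, and their part was not tested either. Libraries 19 and 20 also held the highest Gypc values, 6.23 and 6.05 RPKM. Library 21 held 4.92 RPKM of Gypc, below the 5.39 of library 22, whose T and NK sum was 5.81. Without libraries 19 and 20 the HFD antibody difference of Gypc was 0.76 ± 0.13 beside 0.86 ± 0.12 with them.

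Around Pcolce2, 12 of 20 procollagen processing genes were tested, of which 5 were higher and 2 lower for diet and 0 were called for the antibody. These comparisons called 47.7% and 7.71% of all tested genes. Of 14 collagens 6 were higher and 2 lower for diet, and 1, Col5a3, was lower for the antibody. The paralog Pcolce stood at 3.37 ± 0.566, 3.53 ± 0.730, 4.03 ± 0.904 and 4.93 ± 1.05 RPKM (SD, n = 5, 6, 6 and 6). Averaged over the antibodies it rose with diet by 0.29 ± 0.09 (adjusted p = 0.0123), where Pcolce2 fell by 0.16. The Pcolce2 mean was 1.97-fold lower on HFD under REGN1193 but 1.22-fold higher under REGN496. The Pcolce estimates were 0.38 under REGN1193 and 0.19 under REGN496. In the contrast between diets, P4hb, the beta subunit of prolyl hydroxylase (-0.30 ± 0.09, adjusted p = 0.224), and Loxl4, a lysyl oxidase (-0.20 ± 0.11, adjusted p = 0.574), came first in the list, and Col5a3 (-0.47 ± 0.18, adjusted p = 0.368) and Col18a1 (0.22 ± 0.09, adjusted p = 0.426) among the collagens. None was called. Of 11 tested genes of HDL metabolism 3 were higher and 0 lower for the antibody. They included Scarb1, the HDL receptor (0.35 ± 0.07, adjusted p = 0.00281), and Lipc, hepatic lipase (0.41 ± 0.08, adjusted p = 0.00199). In the contrast between the diets 0 of the 11 were called, beside the same 0.201%.

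The Kupffer cell and macrophage markers (11 genes, all tested, none at 0 throughout) summed to 90.5 to 168 on chow with REGN496 and 151 to 223 on chow with REGN1193. On HFD the sums were 103 to 191 and 109 to 169. For diet 5 of the 11 were lower and 0 higher, and 0 were called for the antibody or for the contrast between diets. Among all tested genes 47.7%, 7.71% and 0.201% were called in these comparisons. The estimates, passed or not, were above 0 for 11 of 11 in the antibody effect on chow (median 0.29), for 6 of 11 on HFD (median 0.10) and for 0 of 11 in the contrast (median -0.24). That contrast was -0.79 ± 0.32 for Clec4f (adjusted p = 0.426) and -0.81 ± 0.21 for Fcna (adjusted p = 0.142). Clec4f, 1 of these markers, was the gene most like Pcolce2. Library 2 had both the lowest marker sum (90.5) and the lowest chow value of Pcolce2 (0.433 RPKM). On HFD the lowest sum was that of library 13 (103), with 0.879 RPKM of Pcolce2. The lowest Pcolce2 value of all, 0.382 RPKM, was in library 19, with a sum of 127. The part of Kupffer cells and macrophages in the Pcolce2 values was not tested.

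Of the 15 outer dense fibre and motile cilium genes, only Odf2 and Odf2l were tested. Odf2 fell with diet by 0.20 ± 0.06 (adjusted p = 0.0115), and Odf2l differed by 0.00 ± 0.07 (adjusted p = 0.981). The contrast between the diets was 0.17 ± 0.12 for Odf2 (adjusted p = 0.679), and the list gives almost no view of cilia in liver. Interferon stimulated genes form the antiviral program to which Ifi47 also belongs. Of the 24 tested, 21 were higher and 0 lower for diet (median 0.47), beside 47.7% of all tested genes called. For the averaged antibody effect 14 were higher (median 0.30), or 10 under median-ratio scaling, beside 7.71% of all tested genes called without that scaling. In the averaged effects Odf3b and Ifi47 rose with the antibody and fell with diet, Ifi47 by 0.36 ± 0.10 (adjusted p = 0.00498). In the contrast between the diets 0 of the 24 were called, beside 0.201% of all tested genes. Their median was 0.35 against 0.02 over all tested genes, and Ifit1 (1.14 ± 0.26, adjusted p = 0.0766) and Ifih1 (0.58 ± 0.17, adjusted p = 0.196) came first. T and NK cell markers were highest in HFD with REGN1193, as given beside Gypc, and their part in the interferon values was not tested.

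Sex-biased liver genes are set by the pulses of growth hormone. All 13 male-biased genes tested were lower for diet, and of 13 female-biased genes 9 were higher and 4 lower. For the antibody, 1 was higher and 1 lower in each list. The shares called among all tested genes were 47.7% for diet, 7.71% for the antibody and 0.201% for the contrast between diets. In the contrast between the diets the female-biased Cyp17a1 and Cyp3a44 were called, in opposite directions, and none of the male-biased genes, of which Elovl3 (-1.25 ± 0.50, adjusted p = 0.414) and Cyp2d9 (0.44 ± 0.23, adjusted p = 0.549) came first. Cyp17a1 held 1.5 ± 0.673, 0.444 ± 0.174, 24.1 ± 10.7 and 1.84 ± 1.11 RPKM (SD, n = 5, 6, 6 and 6), with its high values on HFD with REGN496, the group in which Fam25c was highest.

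The summed hepatocyte markers differed between the HFD groups. Of the 7 genes 1 was higher and 1 lower in the antibody effect on HFD, beside 7.45% of all tested genes called. The markers summed to 61200 to 71100 RPKM with REGN496 and to 55400 to 59100 with REGN1193, without overlap, and the medians were 64000 and 57200. Among single tested genes 2.85% did not overlap between these groups. Their part in the members' values was not tested.

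None of the 5 tested neighbours passed in the contrast between diets, where 0.201% of all tested genes did. The neighbour of Pcolce2 had an estimate of the same sign and similar size as its member, and differences from the members were not tested. The gene nearest to Fam25c in the table, Gm3219, 6196 bases away, held 35.6 ± 5.10, 44.1 ± 8.16, 62.1 ± 12.4 and 53.7 ± 11.1 RPKM (SD, n = 5, 6, 6 and 6) and rose with diet (0.53 ± 0.11, adjusted p = 4.08e-04). Its contrast between diets was -0.50 ± 0.21 (adjusted p = 0.445). Tymp, thymidine phosphorylase, ends 411 bases from Odf3b and held 23.3 ± 3.78, 24.2 ± 4.57, 15 ± 4.44 and 16.8 ± 3.46 RPKM. It fell with diet by 0.57 ± 0.12 (adjusted p = 6.08e-04), as Odf3b did, but its contrast was 0.13 ± 0.24 (adjusted p = 0.894). Tymp thus stayed low on HFD with REGN1193, where Odf3b stood at its chow level. The tested neighbours Bin1 of Gypc (-0.17 ± 0.14, adjusted p = 0.735), Paqr9 of Pcolce2 (-0.61 ± 0.21, adjusted p = 0.317) and 4930480G23Rik of Atp6v0d2 (-0.21 ± 0.17, adjusted p = 0.727) did not pass. The neighbours Sncg, Klhdc7b, 4930455D15Rik, Trpc1 and Slc7a13 did not pass the filter on low values. No gene of the table overlapped a member on the chromosome.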

How the data were processed

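Per the labels' protocols, strand-specific libraries were made with the KAPA mRNA-Seq kit and sequenced as single reads of 33 cycles on a HiSeq 2500. The submitters' processing notes name bcl2fastq 2.17, FastQC and the build GRCm38, and no aligner, counting tool or annotation is given in the sources used here. RPKM values were deposited by the authors for 24475 genes, 1 column per library, and total reads are not in the table. Steps between the low values of 1934 genes gave relative depth, and 87.9% of those values lay within 0.05 of a whole number of reads. Reads were recovered that way for 4 members, but not for nearly all genes, so no count model was used. PCR reads without molecular identifiers are not independent molecules, so counting errors cover counting only.

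The log2(RPKM + 1) values were fitted by limma 3.58.1 (R 4.3.3) with 4 group means, all 23 libraries, a mean-variance trend, two-sided, and Benjamini-Hochberg adjustment over the 11939 genes that reached 0.5 RPKM in 5 or more libraries. Called means an adjusted p under 0.05. The model was tested on simulated data. The estimates of the averaged antibody and diet effects correlate with that of the choosing contrast at -0.0476 by design, and they carry the tests. They share each gene's estimate of spread with that contrast. Members and lists were chosen with earlier results of these data known. Named are the members, the 2 genes most like each (predicted genes passed over), its nearest neighbours and paralogs, and of each list the 2 genes with the smallest adjusted p for the contrast between diets with any called there, apart from items that are not reported here. Positions and promoters are RefSeq's for GRCm38.p6, where 24375 gene IDs matched. No promoter of Atp6v0d2 and Gypc and no protein sequence is shown. Alternatives were other pseudocounts, filters, scalings and variance models, each library left out in turn and, added after seeing the data, libraries 19 and 20 left out together.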

Additional observations from a re-analysis of the deposited data

Results flagged for a closer look

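A Dixon test for a single distant library singled out 2 of the 20 member and group combinations, and chance gives about 1 in 20. Library 11 held 35.2 RPKM of Fam25c, the lowest of the chow libraries with REGN1193 (ratio 0.645 against a critical 0.625). Library 15 held 3.69 RPKM of Odf3b, the highest of the HFD libraries with REGN496 (ratio 0.657). It still lay below every library of the other 3 groups.

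The antibody effect on HFD differed from that on chow, by limma's interaction contrast, in the genes given here. For the 5 members this is the contrast that chose them: -1.29 for Fam25c, 1.0 for Atp6v0d2, 0.93 for Gypc, 0.86 for Odf3b and -0.58 for Pcolce2 on the log2 scale. Among the listed genes it was -2.35 for Cyp17a1 and 0.84 for Cyp3a44. Cyp3a44 has near-identical relatives among the Cyp3a genes, and its reads are uncertain for that reason.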

How the results depend on the processing

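No paired analysis was possible because the sample numbers run from 1 to 23 with none shared between groups. No member's effect changed sign where it was called, under 32 alternatives. The averaged antibody effects of Fam25c, Odf3b and Gypc kept their calls in all 32, with adjusted p of at most 5.26e-04, 0.00850 and 0.0203, as did the diet effects of Odf3b (0.00423) and Atp6v0d2 (4.77e-06). The diet effect of Gypc lost its call when rescaled to the same sum (0.23, adjusted p = 0.0694) and without libraries 19 and 20 (0.20, adjusted p = 0.0738), as did that of Pcolce2 without both (-0.12, adjusted p = 0.0779). The contrast between diets chose the members, so its adjusted p is a description for them and supports none of them. In it, adjusted p reached at most 0.0198 for Fam25c and 0.0299 for Odf3b. It passed over 0.05 for Gypc and Pcolce2 in 12 alternatives each and for Atp6v0d2 in 17. Libraries whose loss did so were 3 to 9, 12, 15 and 22 for Gypc, 1, 4 to 8, 10, 12, 15, 21 and 22 for Pcolce2, and 1, 3, 5 to 10, 12, 14, 15, 18, 22 and 23 for Atp6v0d2. A pseudocount of 0.1 moved the contrast to 1.04 for Odf3b, 1.17 for Gypc, -1.18 for Pcolce2 and 1.84 for Atp6v0d2, and one of 0.5 to -0.81 for Pcolce2 and 1.32 for Atp6v0d2.

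Counts of genes moved more. For the averaged antibody effect, 629 were higher and 291 lower, against 329 and 520 with median-ratio scaling and 1345 and 505 with array weights, and 348 higher when rescaled to the same sum. For the contrast between diets, 15 were higher and 9 lower, against 4 and 4 with no filter, 4 and 2 rescaled to the same sum, 109 and 81 with array weights, 73 and 59 without libraries 19 and 20, and 7 higher with median-ratio scaling. Without a single library they ran from 3 to 44 and from 2 to 21. For the antibody on chow, 47 were higher and 66 lower, against 28 higher when rescaled to the same sum, 119 and 109 with array weights, and 21 to 59 and 35 to 78 without a single library. For the antibody on HFD, 636 were higher and 253 lower, against 377 and 503 with median-ratio scaling, 1414 and 619 with array weights, 472 lower without libraries 19 and 20, and 375 to 1151 and 169 to 453 without a single library. The cause was not tested. Depth limits Pcolce2, with 12 to 42 reads per library, and is not known for Atp6v0d2.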
